A study of Mus musculus with 12 samples.

Results

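The genes described here are 9 genes grouped as targets of transforming growth factor beta (TGF-beta): Ski, Skil, Pmepa1, Bambi, Tgfbi, Fn1, Postn, Thbs1 and Sparc. They are a set of symbols looked up in the deposited count files, put together with earlier results of these data known. All 9 were found among the 50559 gene symbols of those files, and all 9 passed the filter on low counts that left 16550 genes for testing. They were measured by RNA-seq of 12 libraries of visceral white fat from mice of the FVB/N strain, in 4 groups of 3. The wild-type groups carried the alphaMHC tTA driver alone, a transactivator expressed from a heart muscle promoter, and served as littermate controls. The transgenic groups carried the same driver together with an alphaMHC TGFb transgene, a TGF-b1 gain of function that the study describes as heart-specific. Each genotype was fed normal chow, which held 17% of its energy as fat and 3.1 kcal/g, or a fat-rich diet, which held 60% and 5.21 kcal/g. High-fat feeding began at 8 to 10 weeks of age and lasted 2 or 6 weeks, and the labels do not say which duration each library had. Whether every library stands for its own mouse is not said either, and p-values here speak only of library-to-library spread, which may be technical. The comparisons ask whether fat tissue of these mice shows a TGF-beta transcript response to the cardiac transgene, to the diet, or to both.

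TGF-beta ligands are secreted bound to a latency peptide and, once released, signal through a pair of serine/threonine kinase receptors that phosphorylate Smad2 and Smad3. Together with Smad4 these enter the nucleus and switch on target genes, some of which encode brakes on the same pathway and many of which encode extracellular matrix. In adipose tissue the pathway is known for restraining adipocyte differentiation and for matrix deposition during obesity. Ski, Skil (SnoN), Pmepa1 and Bambi belong to the braking group. Tgfbi, Fn1, Postn, Thbs1 and Sparc encode secreted matrix or matricellular proteins, the latter being proteins that bind matrix and alter how cells attach to it.

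In GRCm38.p6, the build of the annotation used here (the submitters' notes name mm10, the same assembly), Ski lies at chr4:155154075-155222535, Skil at chr3:31095058-31122923 and Pmepa1 at chr2:173224458-173276731. Among the matrix genes, Tgfbi lies at chr13:56609586-56639359, Fn1 at chr1:71585473-71653280, Postn at chr3:54359267-54391041, Thbs1 at chr2:118111876-118127133 and Sparc at chr11:55394159-55420080. Fn1 shares 2.5% of its exon bases with a gene on the other strand, and Thbs1 3.42%. The other 7 members share none, Bambi included.

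RefSeq promoter sequence (GRCm38.p6) was matched by symbol for 4 of the 9 genes, Ski, Tgfbi, Postn and Sparc, with 2 start sites for Postn. The window searched ran from 250 bases before to 50 bases after each start. Smad3 and Smad4 bind short CAGA-type elements, so both strands were searched for CAGACA and for the palindrome GTCTAGAC, and also for TGANTCA, the element of AP-1, a frequent partner of Smads. The 250 upstream bases of Sparc (chr11:55420081-55420330, minus strand) are shown because Sparc was the only member whose transcript passed the threshold given below in the main fit. Those of Tgfbi (chr13:56609336-56609585, plus strand) are shown beside them as a member named for its induction by TGF-beta. Capitals mark a match to CAGACA, which reads TGTCTG where it lies on the opposite strand.
Sparc: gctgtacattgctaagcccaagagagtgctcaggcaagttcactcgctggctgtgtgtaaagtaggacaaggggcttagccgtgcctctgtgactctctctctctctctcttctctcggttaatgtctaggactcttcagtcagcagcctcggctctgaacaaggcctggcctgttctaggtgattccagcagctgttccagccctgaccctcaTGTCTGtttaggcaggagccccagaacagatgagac
Tgfbi: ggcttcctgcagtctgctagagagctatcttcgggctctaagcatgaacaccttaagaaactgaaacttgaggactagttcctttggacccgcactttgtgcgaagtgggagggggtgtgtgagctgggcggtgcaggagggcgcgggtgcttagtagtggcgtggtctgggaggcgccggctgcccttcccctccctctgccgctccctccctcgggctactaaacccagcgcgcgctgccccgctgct

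Sparc held 2 matches to CAGACA, beginning at -36 and at +15 from the start, and Ski, Tgfbi and Postn held none. Of the 32851 mouse promoter windows of the same length, 21% held at least 1 CAGACA on either strand, so a match is common. In the other TGF-beta target genes listed below, 13 of 35 promoter windows held one. None of the 5 member windows held TGANTCA or GTCTAGAC, which occurred in 7.81% and 0.213% of all windows. The GC content of the windows ranged from 40.0% and 53.0% at the Postn starts, 55.3% in Sparc and 63.3% in Tgfbi to 85.3% in Ski, against a median of 52.7%. These letters describe the windows and say nothing about binding in this tissue.

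Library totals over gene rows were close to each other, from 20.1 to 21.3 M counts. Levels below are CPM, a gene's count relative to that total in M. Fold changes come from edgeR's quasi-likelihood test over all 12 libraries and are given as log2 values with a standard error (SE); a gene was called when its Benjamini-Hochberg adjusted p over all genes tested was below 0.05. Some libraries carried transcripts of other tissues. The summed CPM of 9 skeletal muscle markers reached 788 in replicate 3 of the transgenic control group and 523 in replicate 3 of the wild-type high-fat group, against 6.59 to 82.3 in the others. The sum of 8 epithelial markers was 378 in transgenic control replicate 2 and 94.4 in wild-type control replicate 1, against 12.3 to 44.1. Liver markers summed to 352 in wild-type high-fat replicate 2 and to at most 60.5 elsewhere. Adipocyte markers, 8 of 8 tested, summed to 24400 to 35900 CPM in all 12 libraries, as the tissue label says. The 6 heart markers, among them Myh6, the alphaMHC gene whose promoter drives the transgene, summed to 0.241 to 13.9.

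Compared per kilobase of exon, the 9 transcripts covered a wide range of levels. Sparc stood highest, at 1040 CPM per kb averaged over the libraries, with single libraries from 472 to 1610. Pmepa1 followed at 98.3 CPM per kb (53.1 to 148), then Thbs1 at 47.0 (13.3 to 159), Fn1 at 44.8 (29.5 to 73.3) and Postn at 36.2 (19.6 to 67.4). The library ranges of Thbs1, Fn1 and Postn overlapped almost wholly, so these neighbours in the order do not differ beyond their spread. Ski at 27.1 CPM per kb and Tgfbi at 20.4 came next, and Skil (2.07) and Bambi (1.8) were lowest, with overlapping ranges of 1.56 to 2.61 and 1.35 to 2.34. Together the 9 genes took 0.332% to 0.802% of a library's counts. Sparc alone accounted for 48.6% to 78.4% of the members' counts.

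**Figure D1:**
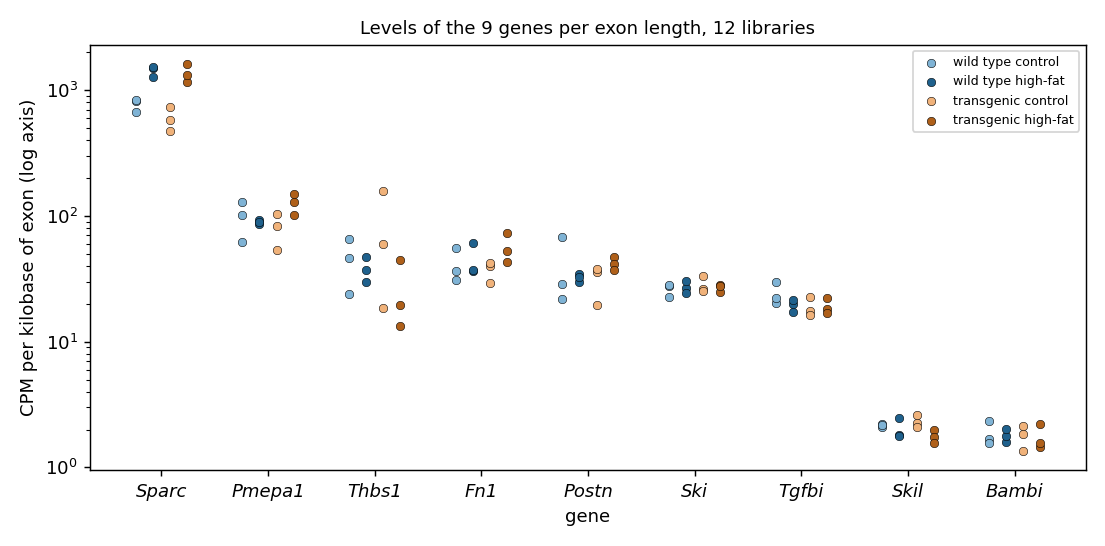
CPM per kilobase of exon (log axis) of each of the 9 genes, with 1 point per library, coloured by group. Sparc lies above every other member in every library, between 472 and 1610, and Skil and Bambi lie lowest, below 3.

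The braking genes came first in the order of roles, and none of the 4 was called in any of the 7 comparisons. Ski encodes a corepressor that holds Smad complexes inactive on DNA. Its CPM was 125, 155 and 156 in the wild-type control libraries, 148, 170 and 135 in the wild-type high-fat libraries, 146, 141 and 184 in the transgenic control libraries, and 139, 157 and 153 in the transgenic high-fat libraries. All 4 groups overlapped, and the largest of its fitted differences between groups was 0.10 on the log2 scale (SE 0.12), for the transgene on the control diet. Its biological coefficient of variation, the spread between libraries beyond counting error, was 11.7%, the smallest of the 9.

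Skil encodes SnoN, the close relative of Ski, and is itself induced by TGF-beta as a feedback brake. Its CPM was 20.5, 21.5 and 21.1 in wild-type control fat and 23.8, 17.4 and 17.3 in wild-type high-fat fat. In transgenic tissue it was 21.9, 25.3 and 20.3 on the control diet and 19.2, 16.9 and 15.1 on the high-fat diet. All 3 transgenic high-fat libraries lay below the 3 transgenic control libraries, while the wild-type groups overlapped. The diet difference was -0.38 (SE 0.16, edgeR adjusted p = 0.149) in transgenic and -0.18 (SE 0.16, adjusted p = 0.588) in wild-type tissue. Averaged over genotypes it was -0.28 (SE 0.11, adjusted p = 0.101), and among the alternatives run it passed the threshold only when wild-type high-fat replicate 1, the library at 23.8 CPM, was left out (-0.37, adjusted p = 0.0325).

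Pmepa1 encodes a membrane protein that keeps Smad2 and Smad3 away from the receptor, and its transcript is often used to read TGF-beta activity. Its CPM was 303, 637 and 500 in wild-type control fat, 459, 424 and 438 in wild-type high-fat fat, 261, 506 and 407 in transgenic control fat, and 632, 499 and 727 in transgenic high-fat fat. On the high-fat diet, all 3 transgenic libraries lay above all 3 wild-type libraries. On the control diet the genotypes overlapped widely, and there replicate 1 of each genotype was the low library. The transgene difference on the high-fat diet was 0.58 (SE 0.28, adjusted p = 0.751), and on the control diet it was -0.31 (SE 0.28, adjusted p = 0.728). The diet difference was 0.68 (SE 0.28, adjusted p = 0.148) in transgenic and -0.20 (SE 0.28, adjusted p = 0.751) in wild-type tissue. The test of the difference between those diet effects gave 0.88 (SE 0.39, unadjusted p = 0.0446), which did not pass after adjustment (0.864).

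Bambi encodes a receptor-like protein without a kinase domain that blocks TGF-beta and BMP receptors, from chr18:3507011-3516404. Its CPM was 8.51, 8.00 and 11.9 in wild-type control fat, 8.11, 9.03 and 10.2 in wild-type high-fat fat, 9.29, 6.87 and 10.9 in transgenic control fat, and 7.32, 11.2 and 7.96 in transgenic high-fat fat. The group means lay between 8.83 and 9.46 CPM, closer together than the libraries within any group. Group membership accounted for 3.69% of the variance of its log2 CPM, the least of the 9 genes. The interval of its average diet difference ran from -0.37 to 0.25 and that of its average transgene difference from -0.33 to 0.29 (95% intervals), so a change of 1 log2 unit lies outside both.

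Among the matrix genes, Tgfbi encodes a secreted, integrin-binding protein named for its induction by TGF-beta. Its CPM was 113, 76.0 and 84.4 in wild-type control fat, 64.9, 74.7 and 81.2 in wild-type high-fat fat, 65.7, 61.7 and 86.2 in transgenic control fat, and 83.4, 68.5 and 63.3 in transgenic high-fat fat. The wild-type control mean of 91.1 ± 19.4 (SD, n = 3) was the highest, and the other 3 group means lay between 71.2 and 73.6. High-fat feeding in wild type gave -0.38 (SE 0.16, adjusted p = 0.231) and the transgene on the control diet gave -0.37 (SE 0.16, adjusted p = 0.418). Both comparisons use the same wild-type control libraries, and without replicate 1 of that group (113 CPM) the values were -0.19 and -0.19. That library also held the highest Schwann cell marker sum, 527 against 220 to 350 CPM in the other 11, and the part of this in the Tgfbi values was not tested.

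Fn1 encodes fibronectin, a main scaffold on which other matrix proteins assemble. Its CPM was 425, 364 and 648 in wild-type control fat, 428, 709 and 436 in wild-type high-fat fat, 345, 464 and 489 in transgenic control fat, and 856, 617 and 505 in transgenic high-fat fat. All 3 transgenic high-fat libraries lay above the 3 transgenic control libraries, by a margin of 505 to 489 at the closest, and the wild-type groups overlapped. The diet difference was 0.63 (SE 0.25, adjusted p = 0.133) in transgenic and 0.06 (SE 0.25, adjusted p = 0.925) in wild-type tissue. The difference between those effects was 0.57 (SE 0.35, adjusted p = 0.881).

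Postn encodes periostin, a matricellular protein that cross-links collagen and fibronectin. Its CPM was 191, 252 and 586 in wild-type control fat, 258, 303 and 282 in wild-type high-fat fat, 314, 329 and 171 in transgenic control fat, and 407, 360 and 324 in transgenic high-fat fat. On the high-fat diet, all 3 transgenic libraries lay above all 3 wild-type libraries, as for Pmepa1. The difference was 0.46 (SE 0.34, adjusted p = 0.838). The single library at 586 CPM, wild-type control replicate 3, set the sign of the comparisons with its group. Without it the wild-type diet difference went from -0.34 to 0.24 and the transgene difference on the control diet from -0.32 to 0.26, none of them called.

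Thbs1 encodes thrombospondin-1, which releases TGF-beta from its latency peptide and is also a TGF-beta target. Its CPM was 145, 283 and 395 in wild-type control fat, 180, 227 and 284 in wild-type high-fat fat, 366, 112 and 963 in transgenic control fat, and 80.7, 272 and 118 in transgenic high-fat fat. The transgenic control libraries alone spanned the range from 112 to 963, and all groups overlapped. Its biological coefficient of variation was 50.8%, higher than in 96.5% of the genes tested. The diet difference in transgenic tissue was -1.55 (SE 0.63, adjusted p = 0.141). It was -0.59 (adjusted p = 0.536) without transgenic control replicate 3, the library at 963 CPM. Without transgenic control replicate 2, the library at 112 CPM, it was -2.01 and passed (adjusted p = 0.049). Those libraries are also the ones with the highest skeletal muscle and the highest epithelial marker sums, respectively, and the part of either tissue in the Thbs1 values was not tested.

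Sparc encodes osteonectin, a collagen-binding matricellular protein that adipocytes, fibroblasts and endothelial cells make. It was the only member called in the main edgeR fit, where it rose 2.02-fold with high-fat feeding on average over genotypes. The authors' deposited tables, given below, call further members. Its CPM was 2550, 3090 and 3160 in wild-type control fat and 5710, 5760 and 4850 in wild-type high-fat fat. In transgenic tissue it was 1790, 2760 and 2200 on the control diet and 4380, 5000 and 6110 on the high-fat diet. Every one of the 6 high-fat libraries lay above every one of the 6 control-diet libraries, with 3160 and 4380 CPM as the nearest values. The group means were 2940 ± 336 and 5440 ± 514 CPM in wild type and 2250 ± 489 and 5160 ± 875 in transgenic tissue (SD, n = 3). The average diet difference was 1.02 (SE 0.14, 95% interval 0.71 to 1.32, edgeR adjusted p = 0.000899). Within transgenic tissue it was 1.22 (SE 0.20, adjusted p = 0.00464), a 2.32-fold rise.

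Within wild-type tissue alone the Sparc difference of 0.82 (SE 0.20, 95% interval 0.39 to 1.24) missed the threshold, with an adjusted p of 0.0635. It passed with DESeq2 on the same 12 libraries (0.82, adjusted p = 0.000927), so the call in wild type depended on the tool. The test of whether the diet effect differed between genotypes gave 0.40 (SE 0.28, 95% interval -0.20 to 1, adjusted p = 0.894). The transgene itself gave -0.39 (SE 0.19, adjusted p = 0.494) on the control diet and 0.01 (SE 0.19, adjusted p = 0.997) on the high-fat diet. Group membership accounted for 87.7% of the variance of log2 CPM of Sparc, against 45.1% or less in each of the other 8 genes. Such shares are positive even without a group effect, and they were not computed over all genes for comparison.

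Cell type markers moved with the diet as well, and these values stand beside the Sparc rise; 17.4% of all genes were called in the average diet effect. Endothelial markers summed to 579 to 684 CPM in wild-type control and 835 to 940 in wild-type high-fat fat, but to 733 to 919 and 741 to 989 in the transgenic groups, and 4 of 8 were called higher in the average diet effect. Fibroblast and progenitor markers summed to 2600 to 4530 on the control diet and 1960 to 3160 on the high-fat diet, with 0 of 10 called higher and 2 called lower. Of 8 adipocyte markers 1 was called higher and 1 lower, and of 10 macrophage markers 3 were called higher and 1 lower. Adipocyte sums were 25200 to 34100 in wild-type control and 25000 to 29500 in wild-type high-fat fat. In transgenic fat they were 28700 to 35900 and 24400 to 26800, without overlap. Over the 12 libraries Sparc had an r of -0.76 with the adipocyte, -0.68 with the fibroblast and -0.75 with the mesothelial sum. With the endothelial and macrophage sums it was 0.49 each, and with the T cell sum 0.70. Mesothelial markers fell in 6 of 8 cases, from sums of 545 to 935 to sums of 119 to 483. Epithelial markers were called lower in 5 of 8 cases and erythroid markers in 4 of 6, while 4 of 6 T cell markers and 5 of 7 liver markers were called higher. T cell sums were low, at 2.52 to 10.0 CPM, with the lowest in transgenic high-fat replicate 1. Liver sums were 25.9 to 60.5 on the control diet. Apart from wild-type high-fat replicate 2 (352), they were 42.0 to 53.2 on the high-fat diet. In bulk tissue, fewer cells of a type and less RNA per cell cannot be told apart, and the part of cell composition in the Sparc values was not tested. The Sparc diet difference was 1.03 without the 2 muscle-rich libraries and 1.08 without the 2 epithelial-rich libraries, and was called in both fits (adjusted p = 0.00431 and 0.00222).

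**Figure D2:**
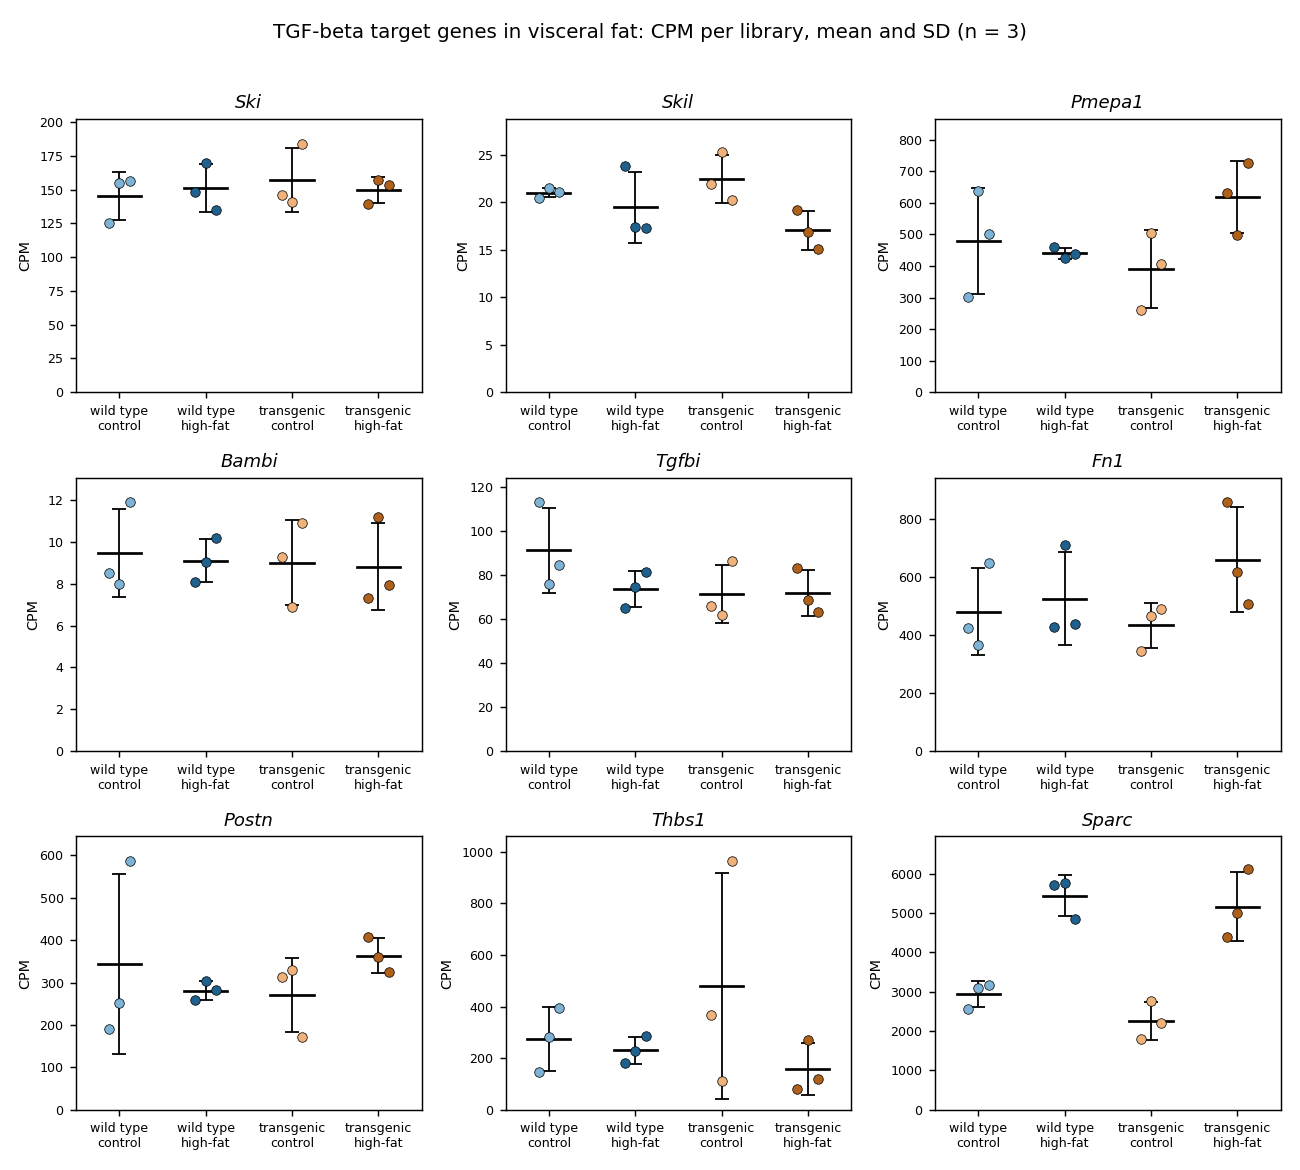
CPM of each gene in each library (linear axes from 0), 1 panel per gene, with the mean (bar) and SD (whiskers) of the 3 libraries of each group. In the Sparc panel the high-fat libraries of both genotypes, 4380 to 6110, stand clear of the control-diet libraries, 1790 to 3160, while in the Bambi and Ski panels the 4 groups lie on top of each other.

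Counted over the 9 genes, the diet comparison in wild type called 0 members, where 1.14% of all genes tested were called, and 2 members (Tgfbi and Sparc) had an unadjusted p below 0.05, as had 2991 of the 16550 genes. Without any overlap between its libraries there was 1 member, Sparc, against 24.8% of all genes. The diet comparison in transgenic tissue called 1 member, Sparc, where 8.73% of genes were called, and 5 members (Skil, Pmepa1, Fn1, Thbs1 and Sparc) had an unadjusted p below 0.05, as had 4278 of the 16550 genes. There 3 members showed no overlap (Skil lower, Fn1 and Sparc higher), against 27% of all genes, a share close to this background. Averaged over genotypes the diet called 1 member, Sparc, against 17.4% of genes. Sparc was also the 1 member without overlap between the 6 high-fat and the 6 control-diet libraries, which 6.29% of genes showed. The median absolute diet difference of the members was 0.43 in transgenic tissue, against 0.24 over all genes, and 0.20 in wild-type tissue, against 0.20.

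The transgene comparisons called 0 of the 9 members on either diet. On the control diet 0.0363% of all genes tested were called and on the high-fat diet 0%, with 1816 and 1114 genes at an unadjusted p below 0.05. Among the members, Tgfbi on the control diet was the 1 below that unadjusted value and on the high-fat diet there were 0. On the control diet 0 members were without overlap, against 13.1% of genes. On the high-fat diet there were 2, Pmepa1 and Postn, both higher in transgenic fat, against 16.6% of genes. Averaged over diets the transgene called 0% of genes by edgeR, with 2032 at an unadjusted p below 0.05 and 0 members among them. The 6 transgenic and the 6 wild-type libraries were free of overlap in 0.532% of genes and in 0 members. The test of genotype by diet interaction likewise called 0% of genes, with 929 at an unadjusted p below 0.05, Pmepa1 among them. DESeq2 on all 12 libraries called 9 genes for the transgene on the high-fat diet, 227 for the average transgene effect and 23 for the interaction, and 0 members in each. The median interaction of the members was 0.40 against 0.01 over all genes, with 6 of 9 above 0 and 0 called. Without wild-type control replicate 3, the interaction of Postn went from 0.78 to 0.19.

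**Figure D3:**
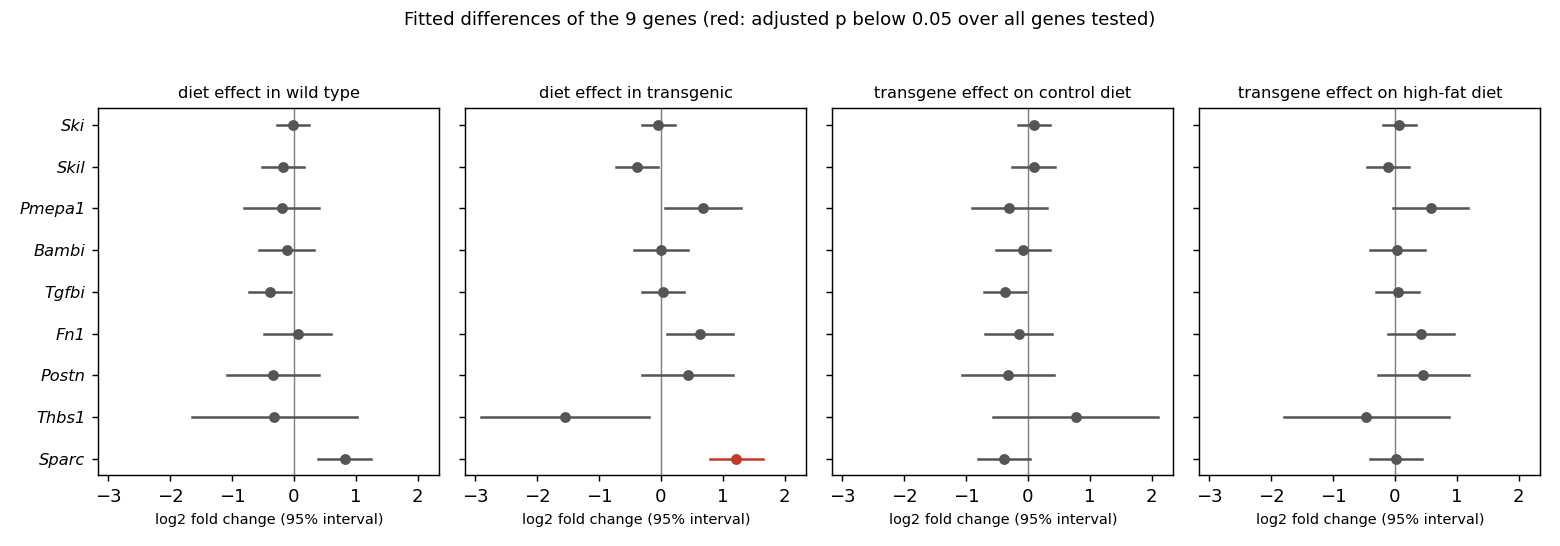
Fitted log2 fold change and 95% interval of each gene in the 4 pairwise comparisons, with adjusted p below 0.05 in red. The Sparc point for diet in transgenic tissue, at 1.22, is the one in red, and the intervals of Thbs1 are the widest.

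The authors' deposited tables, which are DESeq2 output per their headers, place more members below an adjusted p of 0.05. For the transgene on the high-fat diet, the authors' deposited table calls 0.554% of its genes and 2 members, Pmepa1 (0.57, SE 0.15, adjusted p = 0.0226) and Postn (0.45, SE 0.12, adjusted p = 0.0287). The fold changes are those given above to within 0.01, and the standard errors in the authors' deposited table are smaller than the 0.28 and 0.34 of the fit to 12 libraries. The SD of Pmepa1 was 18 CPM in wild-type and 114 in transgenic high-fat fat, against 168 and 123 on the control diet. That of Postn was 22.7 and 41.5 CPM, against 213 and 87.2. Fitted to the 2 high-fat groups alone, edgeR called 0 members for this comparison. Over 21 alternatives Pmepa1 and Postn were each called in 0. The part of these spreads in the differing calls was not tested. In transgenic tissue, the authors' deposited table for diet calls 9.88% of genes and 3 members, Sparc (1.22, adjusted p = 7.49e-08), Fn1 (0.63, adjusted p = 0.0225) and Pmepa1 (0.69, adjusted p = 0.0353). In wild type, the authors' deposited table for diet calls 5.98% of genes and 1 member, Sparc (0.82, adjusted p = 2.01e-07). For the transgene on the control diet, the authors' deposited table calls 0.942% of genes and 0 members.

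The 9 genes had no common course from library to library. Over the 12 libraries, 15 of the 36 pairs had a positive Pearson r of log2 CPM, with a median of -0.03. After the group means were removed, 20 of 36 were positive, with a median of 0.025. The highest pair was Bambi and Thbs1 at r = 0.76 (Spearman 0.81, and 0.87 after removal of group means), a brake and a ligand activator. Pmepa1 and Sparc followed at 0.58 (0.78 within groups), and Fn1 and Postn, which bind each other as proteins, had 0.53 (0.41 within groups). Skil and Sparc had the lowest, -0.54, which became 0.26 within groups. The close relatives Ski and Skil had -0.11. These values describe 12 libraries that share 4 groups and carry no test. Thbs1 also had an r of 0.64 with the skeletal muscle sum and 0.77 with the adipocyte sum, and Bambi 0.57 and 0.49, and the part of tissue makeup in that pair was not tested.

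**Figure D4:**
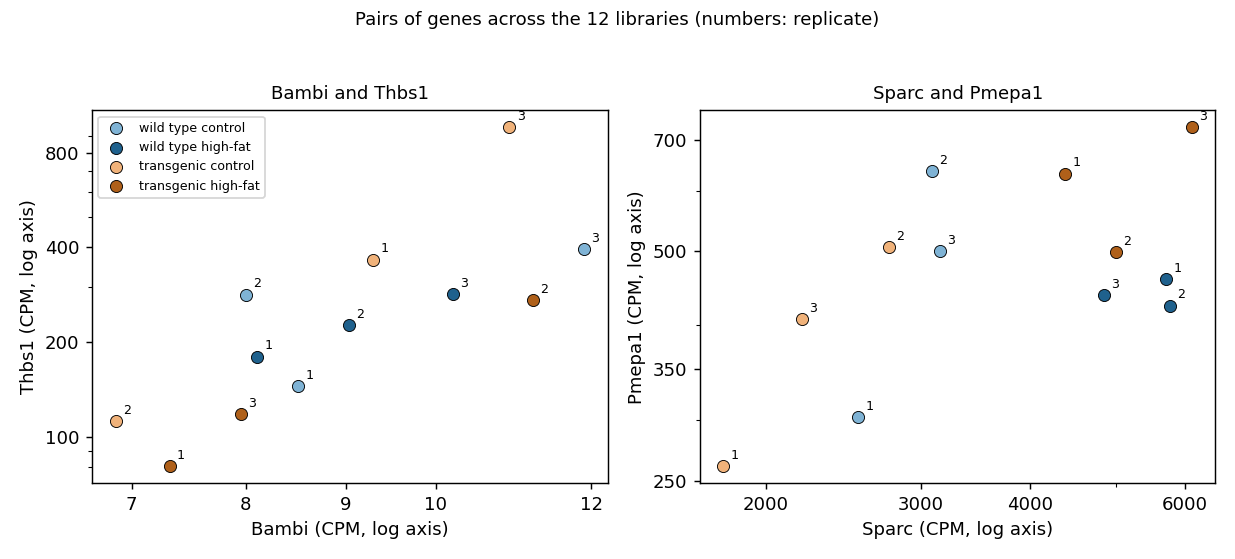
CPM of Bambi against Thbs1 (left) and of Sparc against Pmepa1 (right) in the 12 libraries, log axes, with the replicate number beside each point. For both pairs the relation is closer after removal of group means, with r = 0.76 over all libraries and 0.87 within groups for Bambi and Thbs1, and 0.58 and 0.78 for Sparc and Pmepa1.

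**Figure D5:**
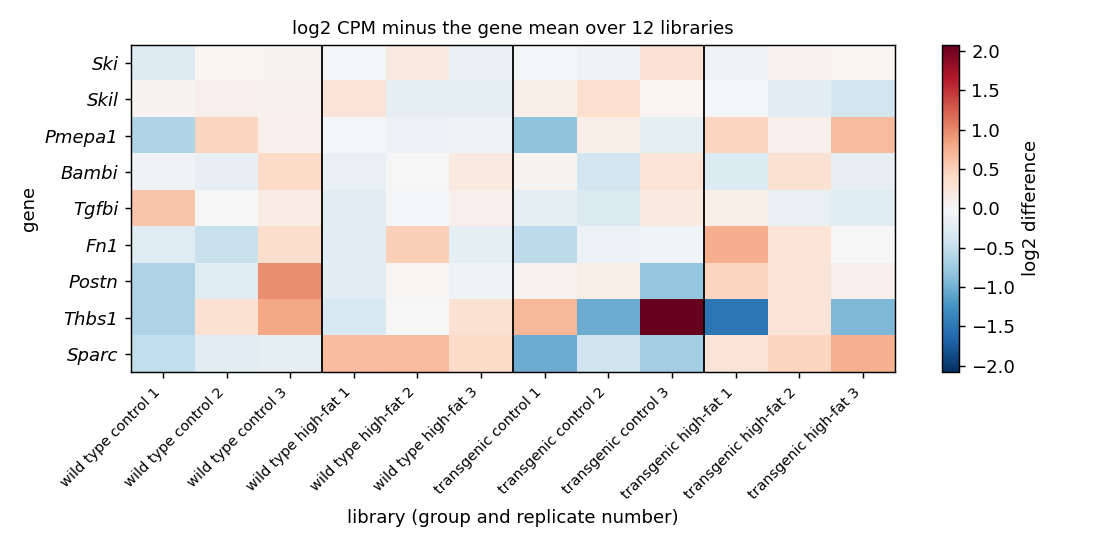
log2 CPM of each gene minus its mean over the 12 libraries, with libraries in columns by group and replicate. The Sparc row splits by diet, the Thbs1 row is dominated by transgenic control replicate 3, and no column has a single colour.

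Among 13080 other named genes with a mean of at least 1 CPM, the closest courses to Sparc were those of Gltp (r = 0.966), Gas2l2 (0.962) and Col6a2 (0.957), the last a chain of collagen VI. After removal of group means these were 0.73, 0.67 and 0.79. Pmepa1 was closest to Gdf5 (0.904), a BMP-family ligand, to Ctsa (0.863) and to Slc22a3 (0.862). Fn1 was closest to Gas7 (0.870), Prr7 (0.859) and Hmox1 (0.845), Postn to Nmrk1 (0.891), Gsto2 (0.877) and Fhit (0.844), and Thbs1 to Ext2 (0.908), Igfbp5 (0.869) and Gna11 (0.866). Ski was closest to Esyt1 (0.886), Ppp2r5d (0.872) and Abl1 (0.867), and Skil to Oaz1-ps (0.894), Pcnp (0.890) and Csnk1a1 (0.886). Bambi was closest to Nrxn2 (0.915), Tspan4 (0.906) and Slc49a4 (0.891), and Tgfbi to Foxred2 (0.859), Psmd7 (0.849) and Ppp2r1b (0.839). None of these 27 genes is a classical TGF-beta target from the lists used here. A highest value among so many candidates is high by selection, and each is a description over 12 libraries. The order depended on the measure. By Spearman's rho, Abl1, Oaz1-ps, Gdf5, Slc49a4 and Nmrk1 ranked 1 for their members. Gas2l2 ranked 347 for Sparc (0.846), Fhit 180 for Postn (0.608) and Ppp2r1b 455 for Tgfbi (0.545).

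The ligand genes changed with diet in opposite directions. Tgfb1, the ligand that the transgene encodes, had a CPM of 47.1, 43.3 and 47.4 in wild-type control fat, 68.9, 73.9 and 65.4 in wild-type high-fat fat, 51.1, 53.7 and 64.2 in transgenic control fat, and 75.0, 73.3 and 79.6 in transgenic high-fat fat. Its rise with diet was 0.52 in wild type (SE 0.09, edgeR adjusted p = 0.0244). That call ended without any 1 of 5 wild-type libraries, all but control replicate 3, with 0.50 to 0.55 and an adjusted p of up to 0.117. In the transgenic libraries it rose by 0.46 (SE 0.09, adjusted p = 0.0106), and neither genotype showed any overlap. The transgenic call and that of the average diet effect (0.49, SE 0.06, adjusted p = 0.000627) held in all 12 fits that left out 1 library. Its average transgene difference was 0.25 (SE 0.06, adjusted p = 0.192). A heart-driven transgene is not checked by Tgfb1 in fat, so this value neither verifies nor questions the genotype labels. Tgfb2 fell by 0.58 in the average diet effect (SE 0.13, adjusted p = 0.0124) and Tgfb3 fell by 0.38 (SE 0.12, adjusted p = 0.0429). The Tgfb3 call ended in 9 of 12 fits that left out 1 library (-0.43 to -0.30 over all 12, adjusted p up to 0.109), and 12.4% of its exon bases are shared with genes on the other strand. Nrros, which holds latent TGF-b1 on macrophages and microglia, rose by 0.83 (SE 0.07, adjusted p = 0.000112). Of 11 ligand, latency and activation genes tested, these 2 rose and 2 fell in the average diet effect, where 17.4% of all genes were called, with a median of -0.13 against -0.02 over all genes. Lrrc32 had the smallest p of this list for the average transgene effect, at 0.51 (SE 0.10, adjusted p = 0.141). Its CPM was 24.4 to 29.5 in wild-type control and 36.8 to 56.0 in transgenic control fat. On the high-fat diet the genotypes overlapped, at 32.5 to 40.9 and 36.0 to 44.7.

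Of 10 receptor and Smad genes tested, 1 fell with diet, against 17.4% of all genes called: Tgfbr3, the betaglycan coreceptor (-0.38, SE 0.07, adjusted p = 0.00567), and 0 of the 10 rose. Tgfbr1 (-0.14, SE 0.10, adjusted p = 0.351) and Tgfbr2 (-0.15, SE 0.10, adjusted p = 0.324), the signalling receptors, did not pass. Neither did Smad2 (0.04, SE 0.07, adjusted p = 0.726), Smad3 (0.18, SE 0.07, adjusted p = 0.105) or Smad4 (0.04, SE 0.05, adjusted p = 0.682). Eng, an endothelial coreceptor, had the smallest p of these genes for the average transgene effect, at 0.48 (SE 0.11, adjusted p = 0.18). Its CPM was 106 to 171 in wild-type control and 203 to 245 in transgenic control fat, and the genotypes overlapped on the high-fat diet, at 165 to 213 and 180 to 207.

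Of 38 other TGF-beta target genes tested, 7 rose in the average diet effect and 0 fell: Col1a1, Col4a1, Col5a1, Timp1, Tnc, Bgn and Adam19. That share is near the 17.4% of all genes called in that comparison, 1561 of them higher and 1321 lower. The transgene comparisons called 0 of the 38. The list's median was 0.17 against -0.02 over all genes, with 29 of 38 above 0. Col1a1, which encodes the main chain of collagen I, had group means of 489, 725, 476 and 771 CPM in wild-type control, wild-type high-fat, transgenic control and transgenic high-fat fat, a rise of 0.60 (SE 0.11, adjusted p = 0.0035). Col5a1, of the collagen V that nucleates those fibrils, rose by 0.72 (SE 0.12, adjusted p = 0.00302). Timp1, an inhibitor of matrix proteases, rose by 1.65 (SE 0.32, adjusted p = 0.00583), and Adam19, a membrane metalloprotease, by 0.46 (SE 0.10, adjusted p = 0.00941). In wild type the Timp1 rise was 2.21 (SE 0.46, adjusted p = 0.0426), a call that ended in 7 of 12 fits that left out 1 library. In transgenic tissue, where the diets overlapped, it was 1.09 (SE 0.46, adjusted p = 0.158). The difference between those effects was -1.13 (SE 0.64, adjusted p = 0.87). Col3a1 (0.52, SE 0.17, adjusted p = 0.0521) stood just outside the threshold.

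Smad7 and Ccn2, often read as direct Smad3 responses, were not among those 7. Smad7, the inhibitory Smad, had group means of 5.32, 6.29, 7.29 and 6.85 CPM in the same order, with 0.04 for diet (SE 0.17, adjusted p = 0.885) and 0.33 for the transgene (SE 0.17, adjusted p = 0.447). Ccn2, the connective tissue growth factor, had 8.03, 18.6, 15.4 and 24.3 CPM and a diet difference of 0.91 (SE 0.34, adjusted p = 0.0831). Acta2, smooth muscle actin, gave -0.54 (SE 0.30, adjusted p = 0.238), and Ltbp2, a matrix protein of the latent TGF-beta binding family, gave 0.07 (SE 0.17, adjusted p = 0.814). Tagln was counted at 0.096 to 0.717 CPM, where 67.9% of its exon bases are shared with genes on the other strand, and 23.2% of those of Ccn2 are shared likewise, so both counts are uncertain. Eln, the elastin gene, led this list for the average transgene effect without passing (0.69, SE 0.18, adjusted p = 0.194), followed by Bhlhe40 (-0.75, SE 0.23, adjusted p = 0.25).

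Cells meet the matrix members through integrins and scavenger receptors, and 4 of 13 such genes rose with diet while 0 fell, where 17.4% of all genes were called. They were Itga4 (0.83, SE 0.14, adjusted p = 0.00299), Itga1 (0.52, SE 0.12, adjusted p = 0.0142), Itga5 (0.37, SE 0.06, adjusted p = 0.00184) and Itgb1 (0.35, SE 0.07, adjusted p = 0.00613), where Itga5 with Itgb1 forms the classical fibronectin receptor. Stab1, a scavenger receptor that takes up SPARC, had CPM of 75.3 to 91.2 in the 6 wild-type libraries and 92.0 to 136 in the 6 transgenic libraries, without overlap. Its average transgene difference of 0.49 (SE 0.09) had an adjusted p of 0.141.

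Paralogs of the members moved both ways. Of 12 tested, 2 rose with diet, Dach1 (0.74, SE 0.12, adjusted p = 0.0025) and Smoc2, and 4 fell, Thbs2, Smoc1, Spock2 and Spock3, where 17.4% of all genes were called in either direction. Spock2 and Smoc1, of the same protein family as Sparc, fell by 1.33 (SE 0.17, adjusted p = 0.000709) and by 0.71 (SE 0.16, adjusted p = 0.0119), where Sparc rose by 1.02. Thbs2, the relative of Thbs1, fell by 0.95 (SE 0.21, adjusted p = 0.011). Its CPM ran from 148 to 397 in the control-diet libraries and from 75.6 to 194 in the high-fat libraries.

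BMP signals run through other Smads and serve as a neighbour for comparison; the share of all genes called for diet, 17.4%, applies to each list that follows. Of 7 BMP-Smad target genes, Id1 fell with diet (-0.63, SE 0.19, adjusted p = 0.0386) and 0 rose. Of 17 immediate-early genes tested, which respond to handling as well as to growth factors, 2 rose with diet: Klf6 (0.65, SE 0.12, adjusted p = 0.00399) and Btg2 (0.30, SE 0.09, adjusted p = 0.047). Leaving out 1 library each ended the Id1 call in 7 of 12 fits (-0.72 to -0.43) and the Btg2 call in 10 of 12 (0.26 to 0.36), without a change of direction. Of 15 cell cycle genes, which TGF-beta restrains in many cell types, 12 rose with diet and 0 fell, with a median of 1.17; Mki67 rose by 1.64 (SE 0.19, adjusted p = 0.000488). In none of the 8 lists of pathway and neighbouring genes did the average transgene effect pass for any gene, as for 0% of all genes.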

How the data were processed

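RNA was taken from visceral white adipose tissue with a Zymo column kit and libraries were made by the BGI DNBseq method, per the labels' protocols. The authors deposited raw counts per gene symbol for each library; the submitters' processing notes name DESeq2 1.32.0, the aligner HISAT2 2.2.0, the counter HTSeq 2.0 and the build mm10. The annotation version and strandedness were not given in the sources used here. Overlapping genes on opposite strands therefore cannot be told apart. The authors' deposited comparison tables hold log2 fold changes with standard errors and adjusted p-values, per the file headers from DESeq2, and are quoted by name.

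The 5 summary entries of each count file (16.8% to 21.0% of its counts) stayed out of totals and tests. In R 4.3.3, edgeR 4.0.16 kept genes by filterByExpr (minimum count 10, minimum total 15), scaled by TMM and fitted group means to 12 libraries (8 residual degrees of freedom). The quasi-likelihood F test was run for 7 comparisons, with Benjamini-Hochberg adjustment over 16550 genes. The SE is the log2 fold change divided by the square root of F. CPM values are not TMM-scaled; log2 CPM used a prior count of 2. The script was tested on simulated data with known changes.

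Groups came from genotype, diet and title labels. All pairs of libraries lay far above sampling noise (chi-square over its degrees of freedom of 18.3 or more). The members and lists were chosen with earlier results of these data known. Named genes are all 9 members, a fixed panel of 16 pathway genes (1 of them not reported here), up to 4 genes with the smallest p for diet and 2 for the transgene from each list, and the 3 genes most like each member; further called genes of a list were named after their values were seen. Alternatives were DESeq2 1.42.0, limma 3.58.1 voom with quality weights, other scalings and filters, the compared groups alone, a replicate block, and leaving out libraries.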

Additional observations from a re-analysis of the deposited data

How the results depend on the processing

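In 21 alternatives for each pairwise comparison and 20 for each other comparison, 1283 of 1296 member values kept their side of the threshold and 13 passed it anew; 103 changed sign, none of them called in either fit. Sparc was called for diet in transgenic tissue and on average in every alternative run. In wild type it was called by DESeq2, by voom, without TMM factors, without the filter and without transgenic control replicate 2, which makes 1 member called in each, against 0. Over all genes those fits called 847, 699, 246, 683 and 171, against 188. Without the filter 2 members (Thbs1 and Sparc) were called for diet in transgenic tissue and 2 on average. That fit called 1878 and 2899 of all genes, against 1445 and 2882. Without the 2 epithelial-rich libraries 3 were called for diet in transgenic tissue (Pmepa1 at 0.96, adjusted p = 0.0381, Thbs1 and Sparc) and 2 on average. There 826 and 1865 of all genes were called. Leaving out 1 library each, members called ran from 0 to 1 for diet in wild type, from 1 to 2 in transgenic tissue and from 1 to 2 on average; for the transgene and the interaction they stayed at 0.

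Counts over all genes moved more. For diet in wild type (188 genes called), DESeq2 gave 847, voom 699, no filter 683, the fit without the epithelial-rich libraries 32 and without the muscle-rich libraries 23, and leaving out 1 library each gave 0 to 269. For diet in transgenic tissue (1445), the groups compared alone gave 764, the fit without the epithelial-rich libraries 826, and leaving out 1 library each 543 to 1505. For the average diet effect (2882) these were 1865 without the epithelial-rich libraries and 1868 to 2992. For the transgene on the control diet (6), DESeq2 gave 256, no filter 269, no TMM factors 0, the groups compared alone 0, without the epithelial-rich libraries 1, without the muscle-rich libraries 16, and leaving out 1 library each 0 to 58. For the transgene on the high-fat diet (0), DESeq2 gave 9 and no filter 5. For the average transgene effect (0), DESeq2 gave 227, voom 2, no filter 145, without the epithelial-rich libraries 1, and leaving out 1 library each 0 to 6. For the interaction (0), they were 23 with DESeq2, 53 with no filter, 1 without the epithelial-rich libraries and 0 to 8. The cause of these shifts was not tested. Spearman's rho in place of Pearson's r for Bambi and Thbs1 was 0.81, against 0.76.

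With the replicate number as a block, 99 genes were called for diet in wild type and 0 for the transgene on the control diet, and no member's call changed. The labels do not say what samples with the same number share. Over 18 pairs of groups and numbers, the correlation of their deviations ran from -0.11 to 0.27, with 4 over 0.1. The highest was that of replicate 3 in wild-type high-fat and transgenic control fat, the 2 muscle-rich libraries. Libraries with different numbers were not compared in this way, so whether the number marks a batch was not tested. With 3 libraries a group, the 95% interval of the wild-type diet difference spanned -0.28 to 0.25 for Ski and -1.65 to 1.02 for Thbs1. Changes larger than such limits could still go uncalled after adjustment over all genes tested. In the same comparison Sparc, at 0.82 with an interval of 0.39 to 1.24, was not called.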
